A study of Mus musculus with 72 samples.

Results

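The genes examined here are 87 autosomal protein-coding genes in 10 families, taken from a GENCODE mouse annotation of 20780 such genes by symbol. They include the exchange factors Dock, Arhgef, Rapgef, Rasgrp and Rasgrf, and the GTPase-activating proteins (GAPs) Arhgap, Arap, Asap and Agap. 6 further genes with such symbols lie on sex chromosomes and were left out, and the symbols Arhgap26 and Arhgef4 each had 2 annotation entries, which were merged. Small GTPases such as RhoA, Rac, Cdc42, Ras, Rap and Arf are molecular switches that shape the actin cytoskeleton, membrane traffic and synapses. Guanine nucleotide exchange factors turn them on by loading GTP, and GAPs turn them off by speeding up GTP hydrolysis. In medium spiny neurons of the nucleus accumbens, a ventral striatal reward region, this balance sets the growth and shrinkage of dendritic spines, which is why these regulators are studied in stress and reward.

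Monomethylation and dimethylation of lysine 27 on histone H3 (H3K27me1 and H3K27me2) were mapped by CUT&RUN in accumbens nuclei of wildtype male mice, with the adult age given in the study design. H3K27me1 is the lightest methylation state of this lysine and is often found over transcribed gene bodies, whereas H3K27me2 covers broad stretches of less active chromatin. In the chronic social defeat cohort, susceptible and resilient mice were each set against the control mice of that cohort (defeat controls), with 4 libraries per group and mark. In the early life stress cohort, mice raised under early life stress and then given subthreshold defeat (ELS SbD) were set against standard-reared mice without defeat (standard control), with 3 H3K27me1 libraries per group. Rearing and defeat differ together in that comparison and cannot be told apart. The susceptible and resilient comparisons use the same 4 control libraries of each mark, so their values are given side by side only.

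The unit of measurement was a site, a stretch of windows that the authors listed as differing between groups. A site was called at an authors' adjusted p under 0.05 and belonged to a gene when it overlapped the gene body or the 1000 bp before its start. Over the 5 deposited tables the regulator genes held 188 called sites, spread over 46 of the 87 genes (52.9%, against 32.8% of all autosomal protein-coding genes), and 41 genes held none. These shares do not allow for gene length, which is taken up per comparison below. H3K27me1 libraries of the defeat cohort averaged 20.57 to 30.39 reads per 1000-bp bin, and its H3K27me2 libraries 10.56 to 40.63. H3K27me1 libraries of the ELS cohort were shallower, at 5.0 to 7.78 reads. The labels do not state whether each library is a separate animal, so a p-value across libraries speaks of library-to-library spread, possibly technical. Accumbens tissue holds several cell types, so a change within a cell type and a shift in their proportions cannot be told apart here.

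None of the 97 promoter windows that RefSeq lists for 65 of the genes (250 bases before to 50 after the start, build GRCm38.p6) overlapped a called site, and 0.992% of all 32851 such windows did. By the distance to any annotated transcript start, 14 sites lay within 1000 bp of one. The regulator windows had a median GC content of 60.7% and a median of 14 CG dinucleotides, against 52.7% and 7 over all 32851 promoter windows. At least 10 CG dinucleotides occurred in 55.7% of the regulator windows and in 43.5% of all windows. The following 4 windows are shown because their genes carry contrasting results below. Dock4 (chr12:40445803-40446102, plus strand, 29 CG) held the most sites, Arhgap5 (chr12:52515827-52516126, plus strand, 2 CG) held only higher sites in susceptible mice, Arhgef18 (chr8:3392758-3393057, plus strand, 17 CG) held only lower ones, and Dock1 (chr7:134670437-134670736, plus strand, 34 CG) held only higher sites in ELS SbD mice. Sequences run 5′ to 3′ from RefSeq with CG dinucleotides, the substrate of DNA methylation, in capitals.
Dock4: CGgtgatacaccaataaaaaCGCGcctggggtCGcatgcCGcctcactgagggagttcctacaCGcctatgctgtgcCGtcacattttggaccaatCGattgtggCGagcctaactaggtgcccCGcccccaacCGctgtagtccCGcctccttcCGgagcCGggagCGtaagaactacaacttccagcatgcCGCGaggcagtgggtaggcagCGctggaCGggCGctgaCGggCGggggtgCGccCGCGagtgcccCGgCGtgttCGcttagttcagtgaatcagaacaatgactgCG
Arhgap5: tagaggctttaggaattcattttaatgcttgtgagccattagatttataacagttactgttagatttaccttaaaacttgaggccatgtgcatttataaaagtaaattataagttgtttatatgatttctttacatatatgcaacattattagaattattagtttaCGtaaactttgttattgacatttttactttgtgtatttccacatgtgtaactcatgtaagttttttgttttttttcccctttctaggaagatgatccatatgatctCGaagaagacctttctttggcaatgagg
Arhgef18: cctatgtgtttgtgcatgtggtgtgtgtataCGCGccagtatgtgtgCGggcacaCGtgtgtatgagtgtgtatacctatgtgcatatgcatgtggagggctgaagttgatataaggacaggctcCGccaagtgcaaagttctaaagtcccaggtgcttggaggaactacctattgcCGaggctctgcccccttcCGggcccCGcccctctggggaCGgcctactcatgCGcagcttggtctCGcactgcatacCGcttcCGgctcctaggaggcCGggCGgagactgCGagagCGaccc
Dock1: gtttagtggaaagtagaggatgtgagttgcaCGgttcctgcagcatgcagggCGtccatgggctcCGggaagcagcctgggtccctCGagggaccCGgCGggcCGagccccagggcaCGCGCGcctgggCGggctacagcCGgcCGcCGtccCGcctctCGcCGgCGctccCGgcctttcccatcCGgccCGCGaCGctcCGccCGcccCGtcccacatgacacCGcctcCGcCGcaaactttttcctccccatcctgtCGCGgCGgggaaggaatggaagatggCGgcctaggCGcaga
The nearest called site was 11.6 kb from the Dock4 window, 9.42 kb from that of Arhgap5, 13.6 kb from that of Arhgef18 and 3.61 kb from that of Dock1. By its letters the Arhgap5 window stands apart, at 29% GC against 62.3% for Dock4, 58.3% for Arhgef18 and 70.7% for Dock1. It belongs to a start inside the gene, whose first annotated base is chr12:52503972. The Dock4, Arhgef18 and Dock1 windows span the first annotated base of their genes, so the windows are not of the same kind.

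The first comparison asked how H3K27me1 differed between susceptible mice and defeat controls. In susceptible mice H3K27me1 was higher at all called sites of the Rac exchange factor genes Dock4 and Dock10 and the Arf GAP gene Arap2. Called sites of the neuronal Rac exchange factor gene Dock3 went in both directions. The rest of these genes was not analysed. The authors' table called 82 sites in 27 of the 87 genes, or 31%, against 20.9% of all autosomal protein-coding genes. Of these sites 50 were higher and 32 lower, so 61% were higher, against 51.6% of called sites over all genes. Changes were small, with median log2 fold changes of 0.45 where higher and -0.44 where lower, against 0.43 and -0.43 over all genes. Higher sites occurred in 20 regulators and lower sites in 17, against 8.34% and 16% of all genes. Only higher sites were held by 10 of them, only lower sites by 7 and both directions by 10.

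Regulator genes are long, with a median length of 94.2 kb (3.55 to 700 kb) against 17.6 kb over all genes, and long genes offer more windows. Among genes over 150 kb, 17 of 31 regulators (54.8%) held a susceptible site against 52.3% of all genes of that length. Among genes of 50 to 150 kb the shares were 32.1% and 39.4%, and under 50 kb they were 3.57%, a single gene of 28, and 14.2%. Per megabase of gene the regulators held 6.77 susceptible sites, against 10.3 over all genes. Within length classes, then, the share of regulators with a susceptible site lay near or below that of other genes.

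**Figure D1:**
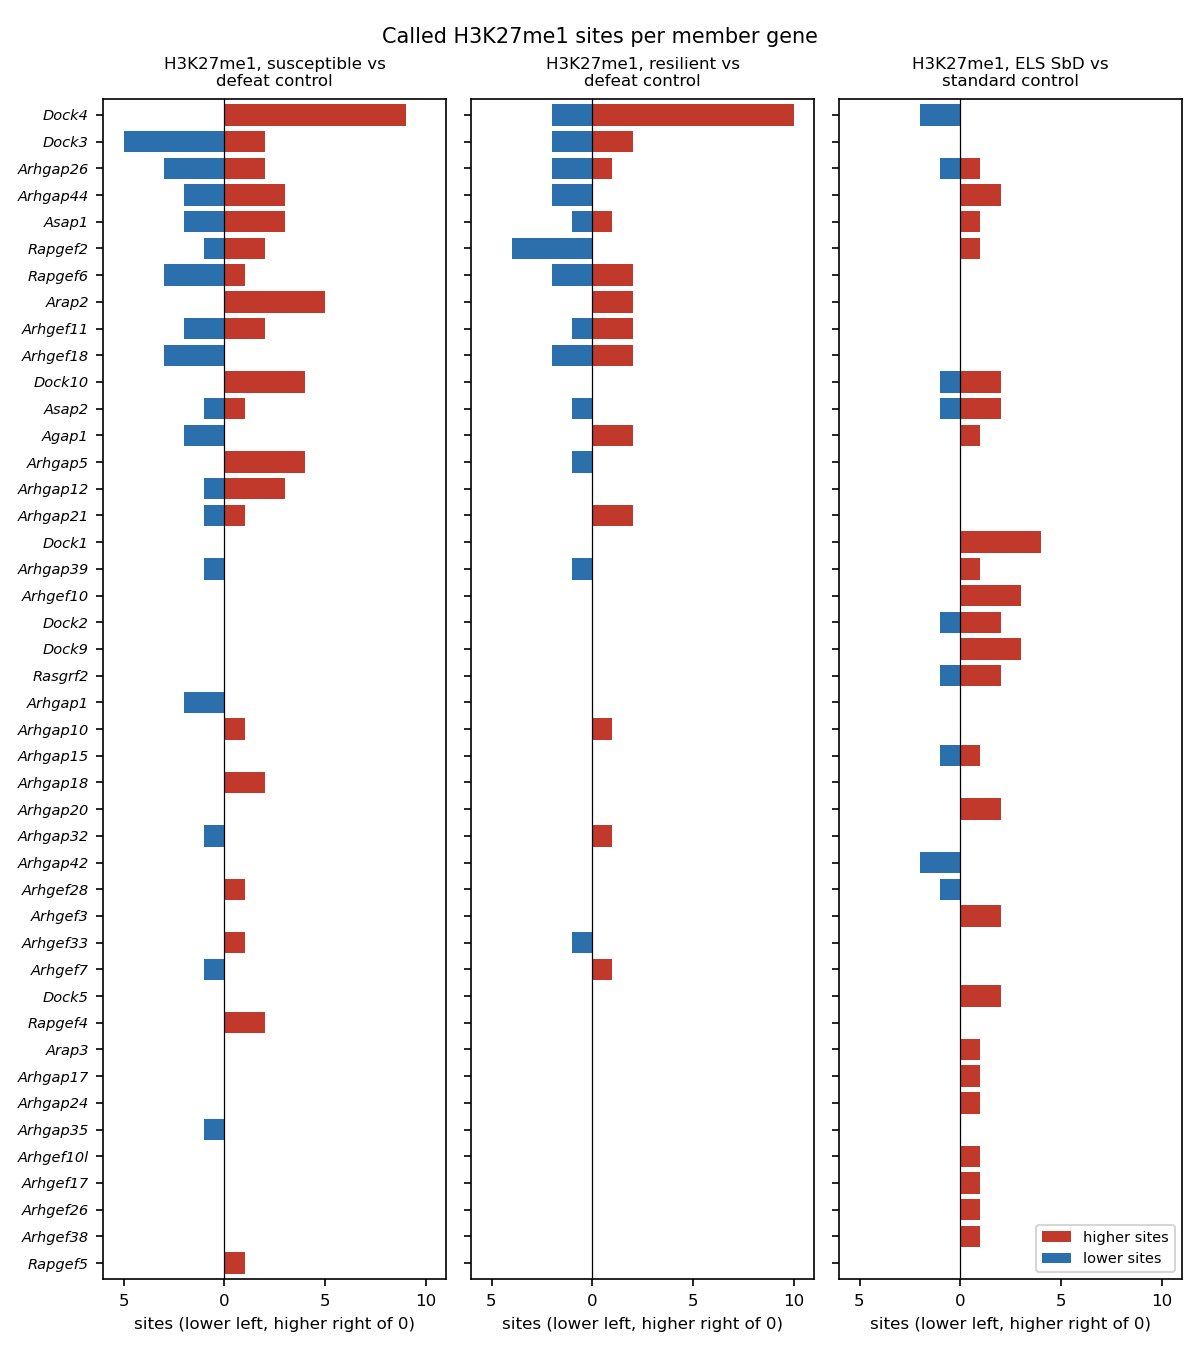
Number of called H3K27me1 sites in each regulator gene drawn (rows), with higher sites to the right and lower sites to the left of 0, for susceptible against defeat control, resilient against defeat control, and ELS SbD against standard control libraries. Dock4 carried 9 higher sites in susceptible mice and 10 higher and 2 lower in resilient mice, but 2 lower and no higher sites in ELS SbD mice; Arhgap15 also holds the sole H3K27me2 site, which is not drawn.

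Dock4, a Rac exchange factor of dendritic spines, led the set. Its 9 susceptible sites were all higher, with log2 fold changes of 0.36 to 0.62, and lay in introns from 12.2 to 334 kb into the gene. Summed over these 9 sites, the susceptible libraries held 870, 980, 940 and 1010 normalised reads, against 744, 677, 615 and 739 in control libraries. Every susceptible library lay above every control library in this sum, a description only, since the sites were selected for a difference on the same libraries. The same holds for each sum over a gene's sites given below. The leading site (intron, chr12:40608801-40610400, mm10) averaged 148 ± 16.9 normalised reads over the susceptible libraries and 110 ± 10.9 over the controls (SD, n = 4 each), and limma's log2 change was 0.43 ± 0.14 (SE, unadjusted p = 0.00473). At 7 of the 9 sites the 2 groups did not overlap, and over all genes 52.8% of called susceptible sites were of this kind.

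Arap2, an Arf6 GAP that also binds RhoA, held 5 susceptible sites, all higher. Its leading site (intron, chr5:62606801-62608700) had 276.60, 316.97, 206.91 and 252.59 normalised reads in susceptible libraries, against 160.91, 201.62, 172.80 and 247.65 in control libraries. The groups overlapped there, since control library 34 at 247.65 reached above susceptible library 32 at 206.91. Limma's log2 change there was 0.43 ± 0.16 (SE, unadjusted p = 0.0107), and leaving out susceptible library 29 or control library 25 took limma's unadjusted p to 0.0506 and 0.0527. Summed over the 5 Arap2 sites, the susceptible mean was 1.37 times the control mean.

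Dock10, an exchange factor for Cdc42 and Rac, had 4 higher sites and no lower site in susceptible mice. Summed over them, susceptible libraries held 416, 369, 386 and 415 normalised reads, against 277, 288, 308 and 298 in control libraries. The groups did not overlap in this sum, which is largely built in by the choice of sites. Arhgap5, which encodes the RhoA GAP p190B, also had 4 higher sites and no lower site, but only 1 of these separated the groups. Its leading site (intron, chr12:52531801-52533500) held 251.91, 260.98, 181.50 and 181.46 reads in susceptible libraries, against 155.39, 195.86, 150.40 and 165.10 in control libraries. Susceptible libraries 32 and 35 were low there, below control library 28. Without susceptible library 26 or 29, or control library 31, limma's unadjusted p at that site became 0.0753, 0.0799 and 0.0538.

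The site with the highest susceptible fold change lay in Rapgef4, which encodes the cAMP-activated Rap exchange factor Epac2. This intronic site (chr2:72064601-72065600) held 71.13, 77.66, 73.81 and 67.48 reads in susceptible libraries, against 48.73, 48.39, 39.47 and 44.38 in control libraries. All 4 susceptible libraries stood above all controls, and limma's log2 change was 0.67 ± 0.14 (SE, unadjusted p = 3.13e-05). Arhgap18, a RhoA GAP gene, had an exonic site (chr10:26868401-26870300) averaging 174 ± 17 reads in susceptible libraries and 127 ± 6.78 in controls (SD, n = 4 each). Arhgap12, whose product is a Rac GAP of excitatory synapses, had 3 higher sites and 1 lower site. The leading Arhgap12 site held 118 ± 15.8 against 82.2 ± 13.9 reads, and neither gene's leading site had overlapping groups.

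At the lower end stood Rapgef2, a Rap exchange factor gene of neuronal cAMP signalling, although it also held 2 higher sites. Its exonic site (chr3:79082601-79084500) held 134.35, 135.46, 130.68 and 132.22 reads in susceptible libraries, against 188.50, 170.51, 180.27 and 189.06 in control libraries. The susceptible libraries lay close together and below every control, and limma's log2 change was -0.45 ± 0.13 (SE, unadjusted p = 0.002). The Arf GAP gene Asap2 held an intronic site (chr12:21038501-21040000) with 79.3 ± 9.59 reads in susceptible and 117 ± 17.8 in control libraries. Arhgap32, a GAP that associates with NMDA receptors, held 73.3 ± 5.61 against 109 ± 23 reads at a site on an annotated transcript start (chr9:32128901-32130100). In both of these the groups did not overlap.

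Arhgap44, a synaptic GAP for Rac and Cdc42, and Arhgap1, a Cdc42 GAP, completed the lower sites with the smallest adjusted p. The leading lower Arhgap44 site (exon, chr11:65009201-65010900) held 143.24, 148.10, 185.13 and 144.99 reads in susceptible libraries, against 206.89, 179.73, 206.94 and 211.25 in control libraries. Susceptible library 32 and control library 28 each stood apart from their groups and crossed, so the groups overlapped. The leading Arhgap1 site (exon, chr2:91671101-91672200) held 87 ± 19.5 reads in susceptible and 120 ± 18.2 in control libraries, also with overlap. Arhgef18, a RhoA exchange factor gene, held 3 susceptible sites, all lower, 2 of them within 1000 bp of an annotated start. Summed over the 3 sites, susceptible libraries held 233, 184, 232 and 263 reads, against 305, 293, 336 and 298 in control libraries.

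**Figure D2:**
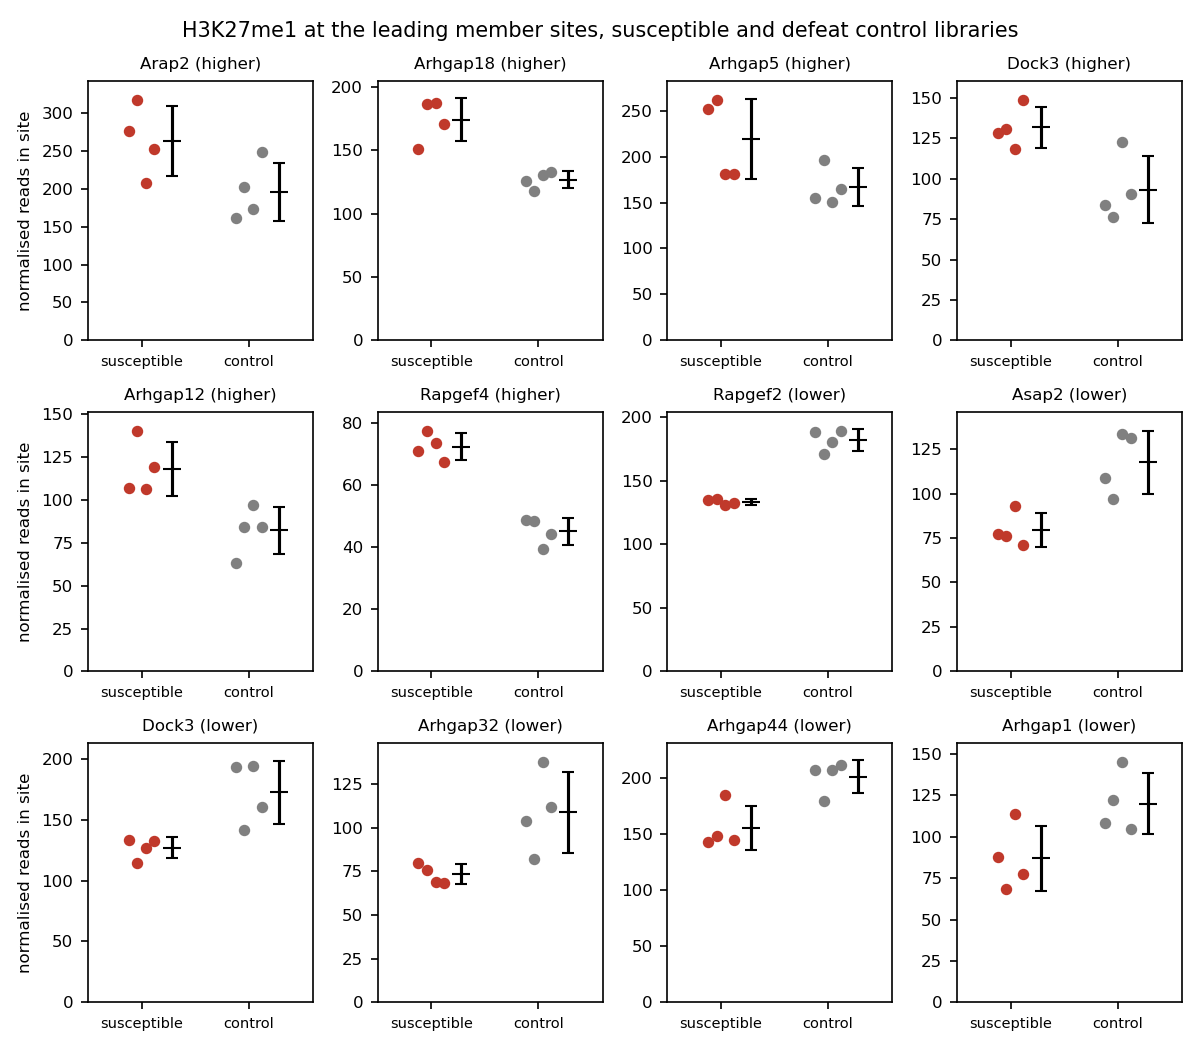
Normalised reads per library at the 6 higher and 6 lower leading sites of the susceptible comparison, with susceptible libraries (red) left of defeat control libraries (grey), and the mean and SD of 4 libraries in black. The Rapgef4 groups separate (67.48 to 77.66 against 39.47 to 48.73 reads), whereas at Arap2 and Arhgap5 they overlap.

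Direction varied inside single genes. Dock3 held 2 higher and 5 lower sites in susceptible mice. A higher site 144 kb into Dock3 (chr9:107086801-107088300) held 132 ± 12.5 reads in susceptible and 93.2 ± 20.5 in control libraries. A lower site 257 kb into the gene (chr9:106973701-106975600) held 127 ± 8.55 against 172 ± 25.7 reads. In Arhgap44 the 3 higher sites lay 20.4 to 56.7 kb into the gene and the 2 lower sites 131 and 153 kb in. Over all regulators the higher sites had a median position of 55% of the gene length and the lower sites of 74.4%.

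**Figure D3:**
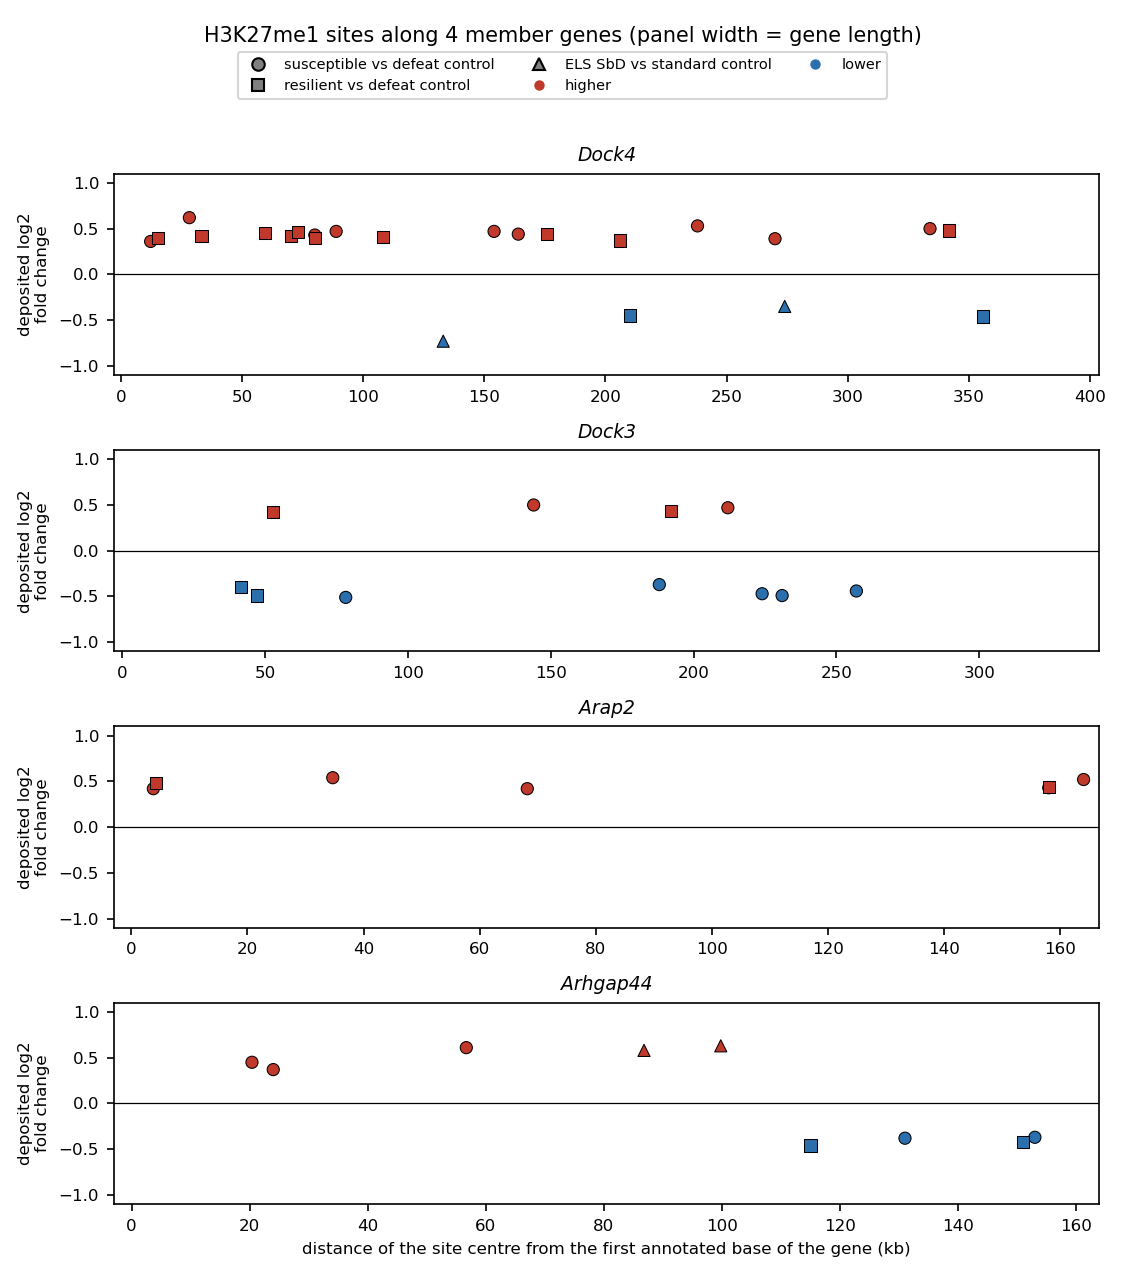
Deposited log2 fold change of each called H3K27me1 site against the distance of its centre from the first annotated base of the gene (kb), for Dock4, Dock3, Arap2 and Arhgap44, with circles for susceptible, squares for resilient and triangles for ELS SbD, red for higher and blue for lower. In Dock4 the circles all lie above 0 and both triangles below it, in Dock3 both directions alternate, and in Arhgap44 the circles above 0 lie nearer the start than those below it.

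By family, in susceptible mice the Dock exchange factors had 15 higher and 5 lower sites in 3 of 10 genes (30%). The Arhgef exchange factors had 4 higher and 6 lower in 5 of 23 (21.7%). The GAPs of the Arhgap family had 16 higher and 12 lower sites in 11 of 31 genes (35.5%). Of all genes 20.9% held a susceptible site, and of those over 150 kb, as all Dock genes except Dock6 are, 52.3% did. Among Arf GAPs, Arap2 held 5 higher sites, Asap1 and Asap2 together 4 higher and 3 lower, and Agap1 2 lower. The Rap exchange factors Rapgef2, Rapgef4, Rapgef5 and Rapgef6 held 6 higher and 4 lower sites. No susceptible site was called in Rasgrf1, Rasgrf2 or any of the 4 Rasgrp genes, which encode Ras regulators.

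In the susceptible comparison the direction of a site went with the base composition of its gene, as it did over all genes. In regulators whose transcripts had a GC content at or under 50.1%, the median of all genes, 39 of 51 susceptible sites were higher (76.5%, against 66.8% over all such genes). In regulators above that median, 11 of 31 were higher (35.5%, against 21.1%). Arhgap5, with higher sites only, had the lowest transcript GC of the genes with a susceptible site, at 34.8%, while Arhgef18 and Agap1, with lower sites only, were both at 55.6%. In the resilient comparison the same shares were 59.4% (52.5% over all genes) and 50% (40.8%). In the ELS comparison they were 73% (58.1%) and 81.2% (78.4%), so there the larger share was in the genes above the median. The part of base composition in the fold changes was not tested.

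**Figure D4:**
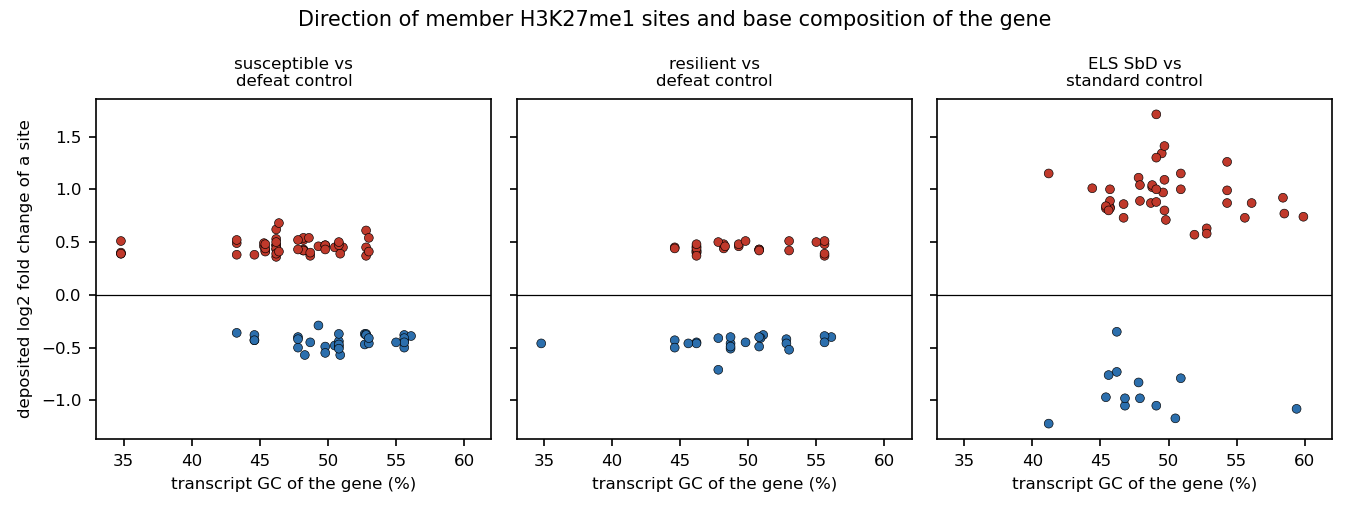
Deposited log2 fold change of each called H3K27me1 site in a regulator gene against the GC content of the gene's transcripts (%), for the susceptible, resilient and ELS SbD comparisons from left to right, with red for higher and blue for lower sites. In the susceptible panel 39 of 51 sites in genes at or under 50.1% GC are higher and 11 of 31 above it, and fold changes in the ELS panel are larger than in the defeat panels.

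Across libraries, limma on log2(normalised reads + 1) gave an unadjusted p under 0.05 at 82 of the 82 susceptible sites, 81 of them past 0.05 after adjustment over the deposited rows. Unlisted windows had no limma p, so adjustment over all 270324 windows the authors tested ranked the listed rows alone. That lower bound left 0 sites. These rows were listed for a difference on the same libraries, so the fit is no separate support. The groups did not overlap at 45 of the 82 sites (54.9%), against 52.8% of called sites over all genes.

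The second comparison set resilient mice against the same defeat controls. H3K27me1 rose at 10 sites of Dock4 and fell at 4 sites of Rapgef2 in resilient mice. The authors' table called 52 sites in 20 of the 87 genes, or 23%, against 15.5% of all genes. Of these 29 were higher and 23 lower (55.8% higher, against 48.8% over all genes). Higher sites occurred in 13 regulators and lower sites in 14, against 8.13% and 10.7% of all genes. By length class the regulators were not above other genes, with 41.9% against 47.9% over 150 kb, 25% against 33.3% between 50 and 150 kb, and 0 of 28 genes against 8.83% under 50 kb.

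Summed over the 10 higher Dock4 sites, resilient libraries held 1188, 1172, 1207 and 1196 reads, against 947, 804, 901 and 912 in control libraries. The resilient libraries were close together and all above the controls in this sum, which is largely built in by the choice of sites. The leading of these sites (intron, chr12:40525401-40526900) held 153 ± 11.5 against 116 ± 26.8 reads, and without control library 31 limma's unadjusted p there was 0.0879. Dock4 also held 2 lower sites, 210 and 356 kb into the gene. Rapgef2 had no higher site, and summed over its 4 lower sites resilient libraries held 288, 309, 331 and 323 reads, against 446, 435, 438 and 409 in control libraries.

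Arap2 held 2 higher sites and no lower site in resilient mice. Its leading site (intron, chr5:62606701-62609000) held 280.09, 318.12, 366.53 and 324.67 reads in resilient libraries, against 196.13, 251.26, 220.26 and 279.81 in control libraries. The lowest resilient library stood just above the highest control, and limma's log2 change was 0.45 ± 0.14 (SE, unadjusted p = 0.00376). The lower site with the largest resilient fold change lay in Arhgap26, the gene of the RhoA and Cdc42 GAP GRAF1. It held 42.57, 45.45, 34.30 and 51.06 reads in resilient libraries, against 66.01, 66.37, 79.60 and 70.86 in control libraries (intron, chr18:39145701-39146700). These groups did not overlap, and limma's log2 change was -0.70 ± 0.14 (SE, unadjusted p = 2.66e-05).

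Other leading resilient sites were higher in Rapgef6, a Rap exchange factor gene (145 ± 15.4 against 106 ± 21.8 reads, SD, n = 4 each), and in Agap1, whose product is an Arf GAP of endosomal traffic (103 ± 4.97 against 72.1 ± 15.3). They were also higher in Arhgef7, which encodes the Rac and Cdc42 exchange factor beta-PIX (102 ± 12.4 against 72.1 ± 16.2), and in Arhgef11, a RhoA exchange factor gene (144 ± 13.3 against 108 ± 7.62). Of these 4 sites, groups overlapped at Arhgef7, where control library 25 reached 96.18 reads and the other controls 61.63 to 66.32. Lower sites led in Arhgap39, a Rac and Cdc42 GAP gene (123 ± 25.5 against 163 ± 9.71), Arhgap44 (88.4 ± 8.58 against 121 ± 13.2), Dock3 (110 ± 6.88 against 146 ± 8.45) and Arhgef18 (110 ± 7.73 against 144 ± 11.3). Of the lower 4, groups overlapped at Arhgap39, where limma's unadjusted p was 0.0571 without resilient library 36.

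Limma gave an unadjusted p under 0.05 at 52 of the 52 resilient sites and left 0, as a lower bound, after the same adjustment over 275586 windows. Groups did not overlap at 36 sites (69.2%), against 54.8% over all genes.

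Between the 2 defeat tables, 8 of the 82 susceptible sites (9.76%) and 8 of the 52 resilient sites (15.4%) overlapped. Over all genes 13.9% and 24.4% did. Values of some of these sites are set side by side. In Arhgef11 (intron, chr3:87707101-87708100 in both tables) susceptible libraries held 78.5 ± 4.17 reads against 54 ± 6.09 in controls, and resilient libraries 78.6 ± 7.73 against 55.4 ± 6.29. At the exonic Rapgef2 sites the values were 133 ± 2.14 against 182 ± 8.7 in the susceptible and 95 ± 11.8 against 136 ± 14.6 in the resilient table, where the site was shorter. In Arhgap39 susceptible libraries held 126 ± 27.9 reads against 165 ± 8.84 in controls, and resilient libraries 123 ± 25.5 against 163 ± 9.71. Control libraries are shared and the tables were scaled separately, and the likeness of these values was not tested.

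Agap1 held 2 lower sites in the susceptible and 2 higher sites in the resilient table, at different places in the gene. The leading susceptible site (chr1:89796501-89797500) held 97.9 ± 19.9 reads in susceptible against 127 ± 21.1 in control libraries, with overlapping groups. The leading resilient site (chr1:89738901-89740200) held 109.82, 98.65, 101.92 and 100.19 reads in resilient libraries, against 63.18, 58.07, 92.68 and 74.49 in control libraries, with no overlap. Dock10, Arhgap12, Arhgap18 and Rapgef4 had susceptible sites and no resilient ones, and a difference between the susceptible and resilient groups was not tested at any site.

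The susceptible H3K27me2 table held 0 regulator sites at any p the authors deposited, and 0.77% of all genes had a called site. Since no window over these genes was listed, no regulator site could enter the limma fit, and the count at an unadjusted p under 0.05 was also 0. The resilient H3K27me2 table called 1 site, in 1 of 87 genes, against 1.22% of all genes (0.775% with a higher site). It lay in an intron of Arhgap15 (chr2:44033401-44034400), which encodes a Rac GAP, and held 100.98, 93.89, 112.35 and 74.42 reads in resilient libraries, against 74.20, 53.14, 55.97 and 82.97 in control libraries. The groups overlapped, and limma's log2 change was 0.52 ± 0.18 (SE, unadjusted p = 0.00938), and with libraries rescaled to equal medians the log2 change was 0.19 (limma, unadjusted p = 0.254). The medians were taken over the listed rows only, which were selected for a difference. Where most rows go the same way, this rescaling removes part of the listed difference by construction.

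The last comparison set ELS SbD mice against standard controls. H3K27me1 in ELS SbD mice was higher at all called sites of the Rac exchange factor gene Dock1, the Cdc42 exchange factor gene Dock9 and the RhoA exchange factor gene Arhgef10. It was lower at the 2 called sites of Dock4. The authors' table, made with a negative binomial test, called 53 regulator sites in 29 of the 87 genes, or 33.3%, against 13.6% of all genes. At an adjusted p limit of 0.01 it called 25 sites in 19 genes. Of all 53 regulator sites 40 were higher and 13 lower (75.5% higher, against 66.6% over all genes). Higher sites occurred in 25 regulators and lower sites in 11, against 9.8% and 5.44% of all genes. Median log2 fold changes were 0.89 where higher and -0.98 where lower, against 0.92 and -0.82 over all genes. The share of genes with a site followed gene length here too, at 64.5% of regulators over 150 kb against 66.6% of all such genes, 25% against 29.5% between 50 and 150 kb, and 7.14% against 5.64% under 50 kb. Per megabase the regulators held 4.38 sites, against 4.23 over all genes.

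Arhgef10, whose product activates RhoA, held 3 ELS sites, all higher, and the site of smallest adjusted p among the higher ones. That intronic site (chr8:14932701-14934200) held 53.90, 41.06 and 51.78 reads in ELS SbD libraries, against 18.77, 23.32 and 19.18 in standard control libraries. The groups lay far apart relative to their spread, and limma's log2 change was 1.22 ± 0.19 (SE, unadjusted p = 1.57e-05). Dock1, the founding Dock180 protein of Rac activation, had 4 higher sites and none lower. Summed over them, ELS SbD libraries held 180, 197 and 218 reads, against 92.9, 113 and 119 in standard controls. Dock9 held 3 higher sites, with sums of 132, 113 and 112 reads in ELS SbD against 57.3, 59.3 and 61.9 in standard control libraries.

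Among the other leading higher sites, Arhgap24, the gene of the Rac GAP FilGAP, held 28.67, 38.26 and 30.21 reads in ELS SbD against 15.81, 15.55 and 6.97 in standard control libraries (chr5:102841901-102843000). Asap2 held 62.8 ± 2.05 against 31.4 ± 7.49 reads (SD, n = 3 each), and Arhgef3, a RhoA exchange factor gene, 29.1 ± 2.4 against 11.8 ± 4.44. Arhgap20, a GAP gene controlled by Rap, held 77.7 ± 19 against 42.7 ± 6.87, and with libraries rescaled to equal medians limma's log2 change there was 0.42 (unadjusted p = 0.0565) in place of 0.83 (unadjusted p = 0.00149). In all 4 the groups were separate, as at 99.1% of called ELS sites over all genes. Rasgrf2, a calcium-responsive exchange factor for Ras and Rac, held 2 higher sites and 1 lower. At its leading higher site (chr13:91975901-91976900) ELS SbD libraries held 69.95, 33.59 and 78.75 reads, against 32.60, 26.24 and 32.26 in standard controls, and ELS SbD library 44 at 33.59 was barely above the highest control. With that rescaling limma's log2 change at this Rasgrf2 site was 0.48 (unadjusted p = 0.0698), in place of 0.89 (unadjusted p = 0.00464). The rescaling used the listed rows alone and moved the median ELS row by -0.41 on the log2 scale. Part of the loss at Arhgap20 and Rasgrf2 is therefore built in.

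Lower sites were fewer. At the leading Dock4 site (intron, chr12:40719301-40720300) ELS SbD libraries held 89.45, 99.85 and 91.70 reads, against 119.55, 119.54 and 118.56 in standard controls. The controls were nearly identical and the groups did not overlap, but limma, which shares a spread over all sites, gave a log2 change of -0.35 ± 0.18 (SE) with an unadjusted p of 0.0718. With libraries rescaled to equal medians limma's log2 change at this Dock4 site was -0.77 (unadjusted p = 0.000705). Part of that shift is built in, since the rescaling moved the median ELS row by -0.41. With trend and robust variance in limma the log2 change was -0.35 (unadjusted p = 0.00626). The other Dock4 site, 133 kb into the gene, held 54.9 ± 6.72 against 90.8 ± 4.26 reads. Further leading lower sites lay in Arhgef28, a RhoA exchange factor gene (15 ± 2.99 against 33.6 ± 2.92), Arhgap42, a RhoA GAP gene (19.5 ± 1.15 against 40.6 ± 3.38), Asap2 (58.9 ± 11 against 102 ± 1.82) and Dock10 (26.9 ± 9.51 against 52.6 ± 4.88). The lower Dock2 site (22.6 ± 6.64 against 44.6 ± 6.16) also lies in Fam196b and cannot be assigned to either gene. Dock2 is a Rac exchange factor best known from blood cells and microglia.

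**Figure D5:**
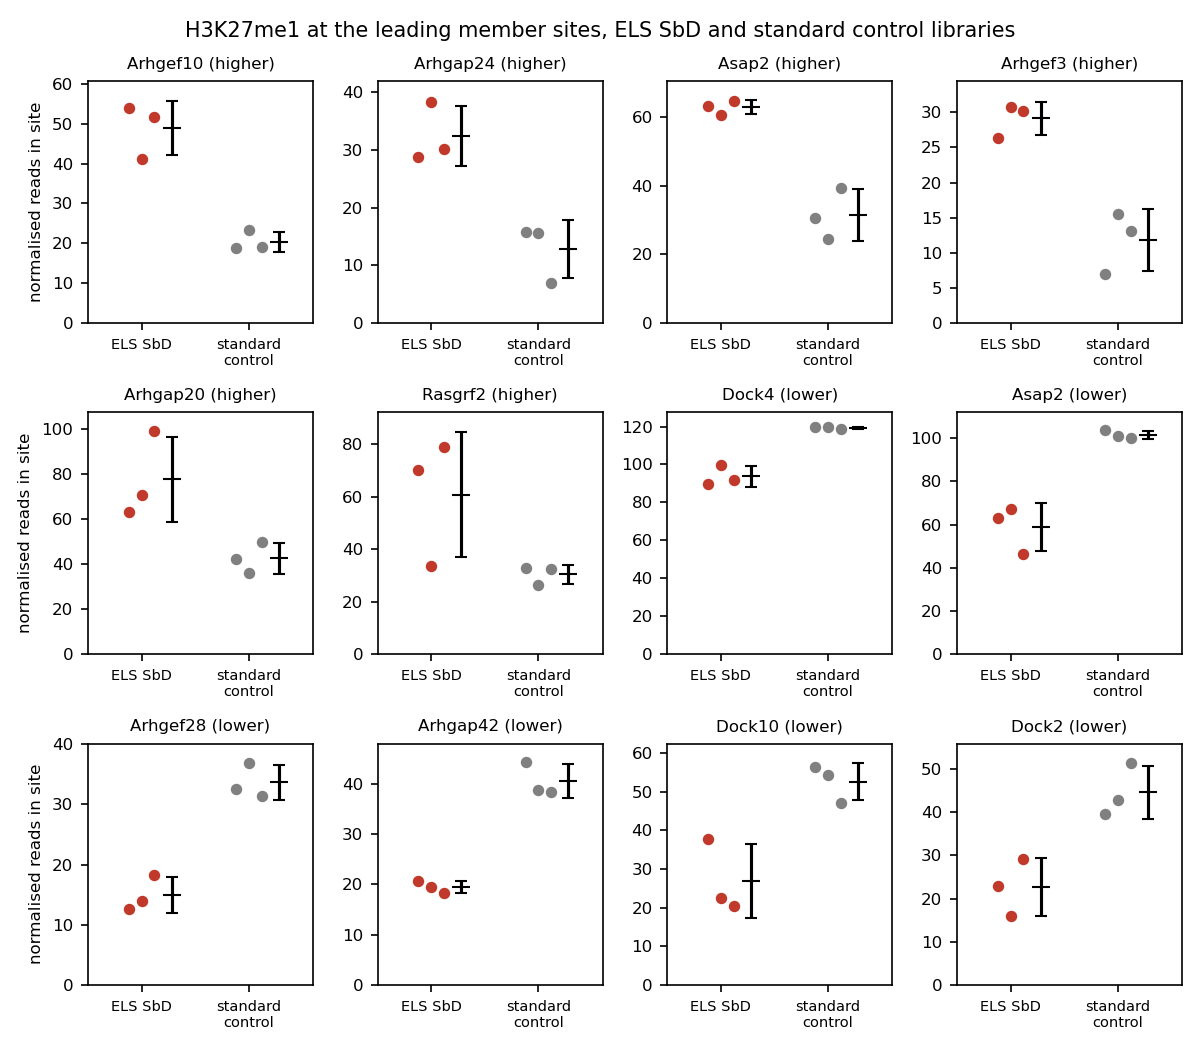
Normalised reads per library at the 6 higher and 6 lower leading sites of the ELS comparison, with ELS SbD libraries (red) left of standard control libraries (grey), and the mean and SD of 3 libraries in black. The groups are separate at each site, as at 99.1% of called ELS sites over all genes. Arhgef10 lies at 41.06 to 53.90 against 18.77 to 23.32 reads, while at Rasgrf2 an ELS SbD library (33.59) lies just above the controls (26.24 to 32.26).

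Groups did not overlap at 53 of the 53 ELS sites, against 99.1% of called sites over all genes. Limma gave an unadjusted p under 0.05 at 52 of the 53 sites and left 0, as a lower bound, after the same adjustment over 1287727 windows. At 12 sites the authors' enrichment over IgG, the antibody background, was below 1 in both groups, 9 of them higher, and 17.1% of called sites over all genes were of this kind.

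By family, in ELS SbD mice the Dock genes had 14 higher and 5 lower sites in 7 of 10 genes (70%). The Arhgef genes had 9 higher and 1 lower in 7 of 23 (30.4%). The Arhgap genes had 9 higher and 4 lower sites in 8 of 31 (25.8%). Of all genes 13.6% held an ELS site, and of those over 150 kb, as all Dock genes except Dock6 are, 66.6% did. Asap1 and Asap2 together had 3 higher and 1 lower, while Arap3, Agap1 and Rapgef2 held 1 higher site each. In 17 genes (19.5%, against 6.89% of all genes), Dock1, Dock9, Arhgef10 and Rasgrf2 among them, sites were called in the ELS table and in none of the other 4 tables. That share was not set against genes of like length, and regulators are longer (median 94.2 kb against 17.6 kb over all genes).

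Susceptible and ELS SbD sites occurred together in 10 of the 87 genes (11.5%, against 5.49% of all genes, most of them shorter, with no share over genes of like length). Among the sites, 0 of the 82 susceptible and 0 of the 53 ELS sites overlapped, and over all genes 0.887% and 2.2% did, so counts near 0 are the background. Of the 10 genes, 0 held only higher sites in both tables and 0 only lower sites in both. Dock4 and Arhgef28 held only higher sites in susceptible and only lower sites in ELS SbD mice, Agap1 and Arhgap39 the reverse, and the other 6 held both directions in at least 1 of the tables. Arhgef28 and Arhgap39 rest on 1 site in each of these tables. The same counts over all genes were not computed, so these directions cannot be read as a reversal particular to the regulators. At its site Arhgef28 had 129 ± 17.4 reads in susceptible against 94.9 ± 11.5 in defeat control libraries, and 15 ± 2.99 in ELS SbD against 33.6 ± 2.92 in standard control libraries at another site. Libraries, depths and tests differ between the cohorts, and the difference between these effects was not tested.

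Some sites lay near annotated transcript starts. In susceptible mice 7 regulator sites lay within 1000 bp of a start, higher in Arap2 (85.3 ± 10.7 against 58.6 ± 11.3 reads) and in the Rap exchange factor gene Rapgef5 (80.5 ± 8.57 against 55.3 ± 7.15), and lower in Arhgap1, Arhgap26, Arhgap32 and at 2 places in Arhgef18. In resilient mice 5 did, higher in Dock4, in the Cdc42 GAP gene Arhgap21 (100 ± 7.53 against 72.6 ± 14.5) and in Rapgef6, and lower at 2 places in Arhgef18. In ELS SbD mice a site was higher in Arhgef10l, a RhoA exchange factor gene (73 ± 14.5 against 43.8 ± 3.79). Apart from these, susceptible sites lay in introns (57) and exons (18).

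Genes around the regulators in the same pathways were read from 6 lists. Of all genes 20.9% held a susceptible site (52.3% of those over 150 kb), and 51.6% of called sites were higher. By list the share of genes with a susceptible site ran from 12.2% (small GTPases) to 52% (Ras and Rap regulators). The lists were not set against genes of like length. In susceptible mice the 41 small GTPase genes had 17 higher sites and 1 lower in 5 genes, of which 12 higher sites were in Rit2, a neuronal Ras-like GTPase (leading site 167 ± 14.9 against 120 ± 21.9 reads). Of 40 GTPase effector genes, 17 held sites, 29 higher and 27 lower, with the RhoA-activated kinase gene Rock1 at 199 ± 27.6 against 141 ± 16.7 and the polarity gene Pard3 at 230 ± 13.3 against 168 ± 16.2 reads at their leading sites.

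Other exchange factors for RhoA, Rac or Cdc42 held 9 higher and 13 lower susceptible sites in 11 of 27 genes, with leading higher sites in Vav3 (259 ± 23.7 against 189 ± 25) and Fgd4, a Cdc42 exchange factor gene (178 ± 32.6 against 122 ± 9.14). Other GAPs for these GTPases held 8 higher and 16 lower in 8 of 16, with lower leading sites in Myo9b (185 ± 27.9 against 245 ± 39.9) and Srgap3 (123 ± 12.9 against 168 ± 14.8), a GAP of neuronal migration and branching. Ras and Rap regulators outside the set held 33 higher and 19 lower in 13 of 25 genes, with lower leading sites in Ralgps1, a Ral exchange factor gene, and Spred2, an inhibitor of Ras signalling (77.9 ± 17.2 against 116 ± 14.6). Arf regulators held 14 higher and 22 lower in 11 of 26, with lower leading sites in the Arf exchange factor genes Arfgef2 (146 ± 31.7 against 196 ± 12.6) and Iqsec1 (49.3 ± 7.4 against 78.5 ± 8.77).

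In resilient mice these lists held 9 higher and 12 lower sites (exchange factors for RhoA, Rac or Cdc42), 10 and 7 (their GAPs), 16 and 12 (Ras and Rap regulators), 8 and 13 (Arf regulators), 5 and 7 (small GTPases) and 20 and 23 (effectors). In ELS SbD mice the same lists held 19 higher and 3 lower, 8 and 2, 13 and 7, 5 and 1, 5 and 2, and 17 and 9. Higher sites outnumbered lower ones in each list in ELS SbD mice, as they did over all genes (66.6% higher). Of called resilient sites over all genes 48.8% were higher.

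Of the cell type markers, 1 of 9 neuronal genes held susceptible sites (Foxp1, 2 higher), 1 of 6 astrocyte genes (Slc4a4, 3 higher), 1 of 5 oligodendrocyte genes (Myrf, 1 lower) and 1 of 6 microglial genes (Cx3cr1, 6 lower). Of all genes 20.9% held a susceptible site, 15.5% a resilient site and 13.6% an ELS site. The leading Cx3cr1 site held 227 ± 24.2 reads in susceptible and 289 ± 25.7 in control libraries. In resilient mice Foxp1 held 2 higher and 1 lower site, Slc4a4 1 of each, the 5 oligodendrocyte genes 0, and Cx3cr1 1 lower site (150 ± 13.2 against 190 ± 19 reads in defeat controls), with no site in the other markers. In ELS SbD mice 2 of 9 neuronal genes held higher sites, 2 in Rbfox3 and 4 in Foxp1, where the leading one held 46.2 ± 5.05 reads against 25 ± 2.01 in standard controls. One higher site each lay in Slc4a4 (55.9 ± 5.51 against 33.7 ± 5.63) and the oligodendrocyte gene Mbp (77.6 ± 10.6 against 44.6 ± 4.15). The microglial gene P2ry12 held 1 lower site (43.4 ± 10.2 against 74.3 ± 6.77), and the other markers none. Their part in the regulator values was not tested.

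Finally, 41 regulators held no called site in any table. They include all 4 Rasgrp genes, Rasgrf1, Rapgef1, Rapgef3, Dock6, Dock8, Arhgef2, Arhgef12, Arhgap22, Arhgap23 and Arhgap25. Windows the authors did not list were not analysed here, so these genes are without a called difference at this depth and not shown to be unchanged.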

How the data were processed

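CUT&RUN values came from 30 H3K27me1 and H3K27me2 libraries in 5 deposited tables of differential sites on mm10; other groups among the 72 samples were not analysed here. Per the submitters' processing notes, reads went through MACS2 2.2.6, SAMtools 1.10, Bowtie2 2.4.1, cutadapt 2.10 and Trim Galore 0.6.5, listed in no order. Per the file headers, diffReps 1.55.4 compared 1000-bp windows (step 100 bp, fragment 100 bp, p limit 0.0001), with a G-test, which pools a group's reads, for the 4 defeat tables and a negative binomial test for ELS. The deposited signal is reads per site scaled by a library constant, by the authors. The log2 fold change (stressed over control group mean), the enrichment ratio over IgG, and the p-value with its Benjamini-Hochberg adjustment are the authors' deposited values.

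Sites were assigned to genes with the GENCODE annotation of the same build, overlap of at least 1 bp. Transcript GC is per gene from its transcripts. The fit across libraries was limma 3.58.1 (R 4.3.3) on log2(normalised reads + 1) over all rows of a table, and was tested on simulated data; a count model was not used because no column holds raw counts. Fold changes on that scale understate changes of low values. Means ± SD are over libraries. Python 3.11.15, pandas 2.3.3, numpy 2.4.6 and matplotlib 3.10.9 did the rest.

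The genes and lists were chosen with earlier results of these data known. Named genes were the 6 higher and 6 lower genes per table of smallest adjusted p (1 leading site per gene, mean of 10 or more reads), the 10 genes with most sites, genes with a site within 1000 bp of a start, and 2 genes per pathway list. Dock1, Dock9, Dock10 and Agap1 values outside that rule were named after their values were seen. Some genes are counted but not reported here by name. Alternatives were stricter limits, other overlaps and flanks, read minimums, rescaling, another pseudocount, limma with trend, and each library left out.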

Additional observations from a re-analysis of the deposited data

Results flagged for a closer look

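Among 50 groups of 4 libraries at the leading sites, 4 held a library far from the others, and chance alone marks about 1 group in 20. At the lower Arhgap44 site of the susceptible comparison, susceptible library 32 held 185.13 normalised reads and the other susceptible libraries 143.24 to 148.10. At the same Arhgap44 site control library 28 held 179.73 and the other controls 206.89 to 211.25. At the Arhgef7 site of the resilient comparison, control library 25 held 96.18 reads and the other controls 61.63 to 66.32. At the Rapgef2 site of the resilient comparison, control library 28 held 113.78 and the other controls 141.72 to 143.93. Groups of 3 libraries in the ELS comparison were not examined this way.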

How the results depend on the processing

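Of 222 summary values recomputed under other settings, 219 stayed close to the reported value (counts within 1.5 times). That tally overstates stability. Susceptible H3K27me2 counts and the site overlap between cohorts were 0 under every setting and were tallied as kept. The resilient H3K27me2 counts rest on 1 site. With a library left out, called sites and sites passing limma are the same numbers entered separately. At an adjusted p limit of 0.01 the ELS comparison had 25 regulator sites in 19 genes. With libraries rescaled to equal medians, 0 H3K27me2 sites passed limma at an unadjusted p under 0.05 in the resilient comparison. That rescaling moved the median row by -0.41 on the log2 scale in the ELS table, -0.33 and -0.23 in the resilient and susceptible H3K27me2 tables, and -0.02 and -0.01 in the resilient and susceptible H3K27me1 tables. Its medians came from the listed rows only, which were selected for a difference, so part of a shared direction is removed by construction. The rescaling turned 0 of the 53 ELS regulator sites and 0 of the 82 susceptible ones round. With each library left out in turn, the sites that kept their direction at an unadjusted limma p under 0.05 numbered 71 to 79 in the susceptible comparison (26 to 27 genes, 59.5% to 63.9% higher), 48 to 52 in the resilient (19 to 20 genes, 54.2% to 57.1% higher) and 52 in the ELS comparison (29 genes, 76.9% higher). The H3K27me2 counts stayed at 1 site in resilient and 0 in susceptible mice. At 37 named leading sites, 408 of 420 values kept their call, 10 lost limma's unadjusted p under 0.05 and 2 gained it. Of the losses, 7 came with a library left out and stand beside Arap2, Arhgap5, Dock4 and Arhgap39 in the results, and 3 came with rescaling, at Arhgap15, Arhgap20 (log2 change 0.42) and Rasgrf2 (0.48). Both gains were at the lower ELS site of Dock4, at -0.77 with rescaling and -0.35 with trend and robust variance. The cause was not tested. No paired analysis was possible because library numbers in the labels are unique and shared by no groups. The ELS libraries were shallower than the others, at 5.0 to 7.78 reads per 1000-bp bin.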
